A study of Rattus norvegicus with 10 samples.

Results

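Transcript levels of 8 genes for chloride exit, chloride loading and cell volume control were described in kidneys of PCK rats, in which a recessive form of polycystic kidney disease arises. The genes are *Cftr*, *Ano1*, *Ano6*, *Ano10*, *Slc12a2*, *Lrrc8a*, *Lrrc8d* and *Clcn3*. They were picked by name, in a list drawn up with earlier results of these data known, and each was found once among the 32545 genes listed. All 8 passed a filter at a mean of 0.1 FPKM (fragments on a gene scaled to its length and to a size set for each library), as did 17631 genes in all. The strain, PCK/CrljCrl-Pkhd1pck/Crl, carries a mutation of *Pkhd1*, so both groups, 5 males and 5 females, were mutant, and the RNA-seq held no group without the mutation. The rats were littermates, drawn from 2 litters of separate parents, and the litter of each rat was not used here. Poly-T selected RNA gave 1 library per rat. The sample labels give an age of 12 to 14 weeks and the tissue as kidney, whereas the study's methods give 10 to 12 weeks and renal cortex.

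Cysts in polycystic kidneys enlarge in part because their epithelium secretes chloride, with sodium and water following. NKCC1, the product of *Slc12a2*, loads chloride into the cell from the blood side. CFTR, opened by cAMP and protein kinase A, and TMEM16A, the calcium-activated channel made from *Ano1*, let chloride leave into the cyst lumen. *Ano6* encodes a calcium-activated phospholipid scramblase that also conducts ions, and *Ano10* a related anoctamin. LRRC8A is the obligatory subunit of the volume-regulated anion channel, and its partner LRRC8D widens what the channel passes to organic osmolytes such as taurine. *Clcn3* encodes a chloride/proton exchanger of endosomes.

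Between 13912569 and 20285911 reads per library fell on genes. The Y-linked *Eif2s3y* was at 34.2 to 46.5 FPKM in the males and at 0.0327 to 0.287 FPKM in the females, as the labels have it. Abundant markers of the proximal tubule (*Slc34a1*, mean 1257 FPKM) and of the thick ascending limb (*Umod*, mean 1125 FPKM) were present in all 10 libraries. Mitochondrial transcripts took 14.3 to 19.1% of reads in 9 libraries and 26.8% in female 2. Summed markers of fibroblasts, 6 genes, lay at 249.8 to 333 FPKM in males against 79.4 to 234 FPKM in females, the one list of 12 cell types without overlap between the sexes. Fitted levels were lower in females for 6 of 6 fibroblast markers (median log2 fold change −0.84, 1 past limma's adjusted threshold), for 6 of 7 markers of injured or cyst-lining epithelium (−0.81, 1 past it) and for 6 of 6 leukocyte markers (−0.48, 0 past it). The part of these cell types in the sex differences of the members was not tested. In bulk tissue, fewer cells of a type and less RNA per cell cannot be told apart.

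The starts of *Cftr*, *Ano1* and *Lrrc8d* are shown because these were the members with the lowest fitted ratio of females to males. Each window runs from 250 bases before to 50 bases after the start that RefSeq gives on GRCr8, 5′ to 3′ on the strand of the gene. It lies at chr4:47527379-47527678 on the plus strand for *Cftr*, at chr1:209329289-209329588 on the minus strand for *Ano1* and at chr14:4350187-4350486 on the minus strand for *Lrrc8d*. Capitals mark matches to the GC box GGGCGG, to CCAAT (here as its reverse, ATTGG) and to TGACATCA, which differs by 1 base from the cAMP response element TGACGTCA and was searched for after the sequence was seen.
Cftr: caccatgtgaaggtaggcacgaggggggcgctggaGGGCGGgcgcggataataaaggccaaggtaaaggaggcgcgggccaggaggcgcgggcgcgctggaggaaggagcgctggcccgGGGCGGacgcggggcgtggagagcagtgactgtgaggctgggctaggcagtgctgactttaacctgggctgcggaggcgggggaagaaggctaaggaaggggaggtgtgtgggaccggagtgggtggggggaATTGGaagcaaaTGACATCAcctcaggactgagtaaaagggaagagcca
Ano1: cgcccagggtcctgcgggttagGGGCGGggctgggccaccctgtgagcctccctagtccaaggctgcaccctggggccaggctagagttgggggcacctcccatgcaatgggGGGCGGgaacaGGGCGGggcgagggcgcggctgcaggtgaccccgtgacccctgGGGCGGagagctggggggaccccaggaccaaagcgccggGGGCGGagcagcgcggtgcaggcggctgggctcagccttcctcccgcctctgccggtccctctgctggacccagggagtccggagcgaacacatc
Lrrc8d: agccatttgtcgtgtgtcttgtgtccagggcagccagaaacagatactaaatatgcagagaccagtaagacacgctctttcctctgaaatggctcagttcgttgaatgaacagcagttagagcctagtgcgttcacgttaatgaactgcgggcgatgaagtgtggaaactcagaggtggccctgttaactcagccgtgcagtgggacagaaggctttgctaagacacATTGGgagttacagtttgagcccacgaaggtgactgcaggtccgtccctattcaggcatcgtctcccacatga

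GC boxes were matched 2 times in the *Cftr* window, 5 times in that of *Ano1* and 0 times in that of *Lrrc8d*. On either strand, 33.1% of all 33469 windows hold that motif. The *Cftr* window also held 1 CCAAT match, a motif of 37.5% of windows, and 1 TGACATCA, a motif of 4.34%. CCAAT was also matched for *Ano6*, *Lrrc8d* and *Clcn3*, and TGACATCA also for *Clcn3*. GC content was 65.0% for *Cftr*, 73.7% for *Ano1* and 50.3% for *Lrrc8d*, against a median of 51.7%. All 8 genes were matched to a window. The whole element TGACGTCA, in 1.83% of windows, was matched for *Lrrc8a* and in 1 of 2 windows of *Clcn3*, and TATAAA, in 14.2%, for no member. These matches describe letters and say nothing of factor binding.

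Of the 8 members, 7 had a lower fitted level in females, where 51.2% of all genes did. The median log2 fold change of females over males was −0.12 over the members and −0.01 over all 17631 genes. In limma's test over all genes, 0 of 8 members passed an adjusted p of 0.05, as 2.4% of all genes did, and the lowest adjusted p of a member was 0.189. Without adjustment 4 members were at or under 0.05, against 15.7% of all genes, and limma-voom on recovered reads likewise called 0 members after adjustment. In exact permutation tests of single genes, 4 members were lower in females at p of 0.05 or less (*Cftr*, *Ano1*, *Ano6* and *Lrrc8d*), beside 7.38% of all genes. These p-values were not adjusted, and the splits of 5 against 5 rats allow no p under 0.00794.

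**Figure D1:**
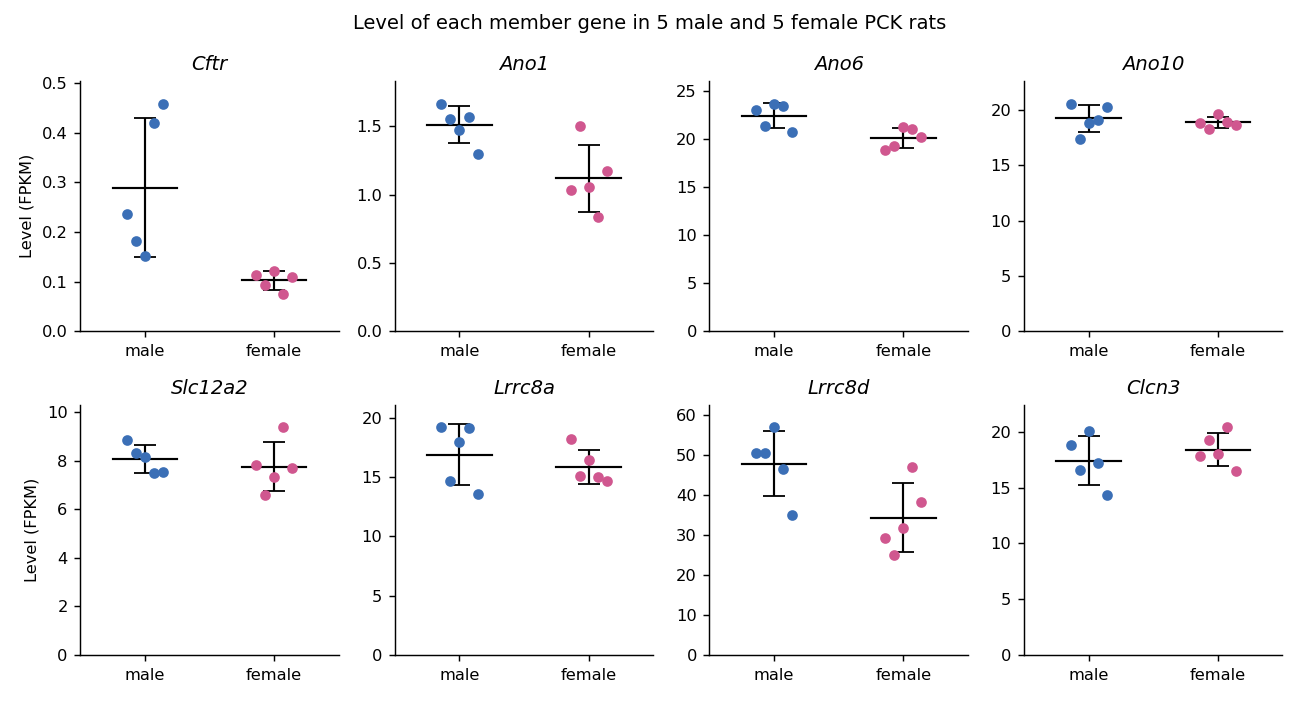
Expression of each member in every rat, in FPKM on a linear axis per gene, with a point per rat and the mean and SD of each sex. The females of *Cftr* (0.0743 to 0.121 FPKM) lie below every male, and the other 7 genes overlap between the sexes.

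*Cftr* (ENSRNOG00000055103, chromosome 4, 42692836 to 42860676, plus strand, Rnor_6.0, as for all gene positions here) was the lowest of the members in every rat. Males 1 to 5 had 0.237, 0.181, 0.152, 0.419 and 0.458 FPKM. Females 1 to 5 had 0.113, 0.0934, 0.121, 0.0743 and 0.110 FPKM. Every female was below every male, with males 4 and 5 far above the rest. Ranges that do not overlap, with females lower, were seen for 1 of 8 members and for 2.6% of all genes.

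The *Cftr* means were 0.289 ± 0.140 FPKM (SD, n = 5) in males against 0.102 ± 0.0187 FPKM (SD, n = 5) in females, so the female mean was 0.354 of the male mean. An exact permutation test, two-sided, gave p = 0.00794, the smallest the design allows. On the log2(FPKM + 0.1) scale, which understates changes at so low a level, the difference was −0.87 (95% interval −1.55 to −0.20, limma adjusted p = 0.189). Behind these values stood 15 to 59 reads in each male and 9 to 14 in each female. The 95% Poisson interval of the lowest male, 0.0851 to 0.251 FPKM, overlapped that of the highest female, 0.0663 to 0.203 FPKM, and such intervals cover counting error only. Among females the coefficient of variation was 18.3%, within the 29.6% that counting alone gives, whereas among males it was 48.5% against 17.2%.

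Of the anoctamins, *Ano1* (ENSRNOG00000020865, chromosome 1, 217754336 to 217902473, minus strand) was expressed well below *Ano6* and *Ano10*. In males 1 to 5 it was at 1.66, 1.56, 1.47, 1.57 and 1.30 FPKM. In females 1 to 5 it was at 1.03, 1.51, 1.05, 0.835 and 1.17 FPKM. Among the females, 4 were below all males, and female 2 lay within the male range. The difference was −0.42 on the log2 scale (95% interval −0.79 to −0.06), with p = 0.0238 in the exact permutation test and an adjusted p of 0.241 in limma. Without female 4 the exact p was 0.0556, and without female 2, the library with the most mitochondrial reads, it was 0.00794.

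*Ano6* (ENSRNOG00000006995, chromosome 7, 137142170 to 137335208, plus strand) was abundant and differed little. The males had 23.0, 21.4, 23.7, 23.4 and 20.7 FPKM and the females 18.9, 19.3, 21.2, 21.1 and 20.3 FPKM. Only 3 females lay below the lowest male, but 4 males lay above the highest female. The female mean was 0.898 of the male mean, with an exact permutation p of 0.0317 and a limma adjusted p of 0.316. Leaving out male 3 or male 4 took the exact p to 0.0556, and leaving out female 1, 2 or 5 took it to 0.0635.

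*Ano10* (ENSRNOG00000000219, chromosome 8, 130813214 to 130930990, minus strand) was at 19.2 ± 1.25 FPKM (SD, n = 5) in males against 18.9 ± 0.465 FPKM (SD, n = 5) in females. Female values of 18.3 to 19.6 FPKM lay within the male range of 17.4 to 20.6 FPKM. The female to male ratio had a 95% interval of 0.887 to 1.09 (limma adjusted p = 0.905). Within each rat, *Ano6* over *Ano10* was 1.17 ± 0.0969 (SD, n = 5) in males and 1.07 ± 0.0432 (SD, n = 5) in females, a difference that missed the threshold (exact permutation test, p = 0.0714, 0.0873 adjusted over the 3 ratios computed). Without male 5 that p was 0.00794. Of 7 further anoctamins only *Ano8* and *Ano9* passed the filter. *Ano8* was at 6.92 FPKM in males against 6.25 FPKM in females (limma adjusted p = 0.708), and *Ano9* at 3.56 and 3.10 FPKM (limma adjusted p = 0.531).

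**Figure D2:**
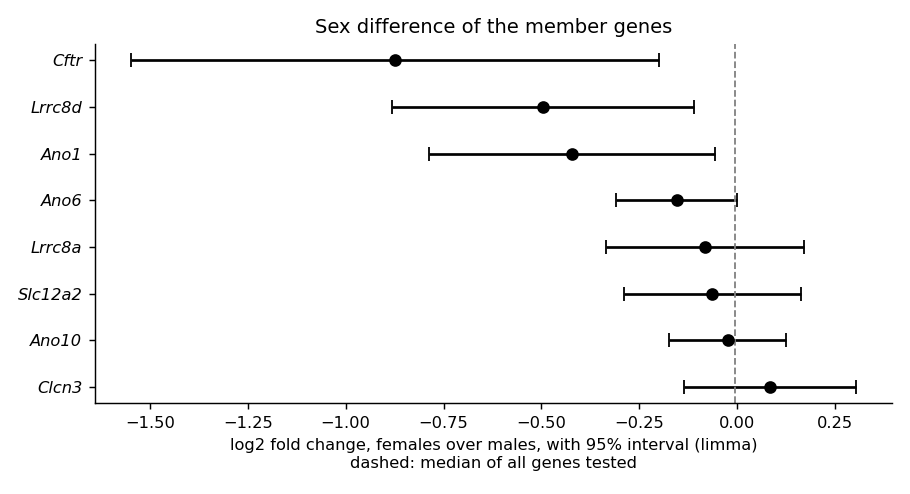
Log2 fold change of females over males for each member, with bars for the 95% interval from limma on log2(FPKM + 0.1). The dashed line is the median of all genes tested, −0.01. Intervals of *Cftr*, *Ano1*, *Ano6* and *Lrrc8d* lie below 0 before adjustment, and those of the other 4 genes include 0.

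The channel subunit *Lrrc8d* (ENSRNOG00000002121, chromosome 14, 5086054 to 5101177, minus strand) was the most abundant member. Males 1 to 5 had 50.4, 50.5, 56.9, 46.5 and 35.1 FPKM, and females 1 to 5 had 29.4, 25.1, 31.7, 47.1 and 38.3 FPKM. The sexes overlapped through males 4 and 5, the lowest males, and females 4 and 5. Means were 47.9 ± 8.07 FPKM (SD, n = 5) in males against 34.3 ± 8.61 FPKM (SD, n = 5) in females. The log2 difference was −0.50 (95% interval −0.88 to −0.11), with an exact permutation p of 0.0397 and a limma adjusted p of 0.193. That exact p held only without male 5 or without female 4. It was 0.0556 without male 4 or female 5 and 0.0714 without any one of the other 6 rats.

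Male 5 and female 4 also stood at the ends of the proximal tubule markers. Summed over 6 genes, these markers were at 2553, 3096, 3173, 2461 and 1912 FPKM in males 1 to 5 and at 2113, 2241, 3109, 3603 and 3329 FPKM in females 1 to 5. The sums of the sexes overlapped widely. Given per 1000 FPKM of these markers, a scale chosen after the data were seen, *Lrrc8d* was at 18.2 ± 1.28 (SD, n = 5) in males and 12.0 ± 1.49 (SD, n = 5) in females. The male values ran from 16.3 to 19.7 and the female values from 10.2 to 13.9, so that the sexes did not overlap. The scale was picked because male 5 and female 4, which overlapped in *Lrrc8d*, lay at the ends of the marker sum. Male 4 also overlapped but lay between those ends, at 2461 FPKM. The values on this scale are therefore a description, with no test. All but 1 of the 6 markers had a higher fitted level in females, with a median log2 fold change of 0.27. Of these, 2 had an exact permutation p of 0.05 or less, and *Cubn* passed the test over all genes (log2 fold change 0.72, limma adjusted p = 0.0467). A larger marker sum lowers a value on this scale. On the same scale the other 7 members overlapped between the sexes.

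*Lrrc8a* (ENSRNOG00000025296, chromosome 3, 8802852 to 8828533, plus strand), the subunit that every such channel needs, was at 16.9 ± 2.61 FPKM (SD, n = 5) in males against 15.9 ± 1.46 FPKM (SD, n = 5) in females. Male values of 13.6 to 19.2 FPKM enclosed the female values of 14.6 to 18.2 FPKM. The 95% interval of the female to male ratio was 0.793 to 1.13 (limma adjusted p = 0.794). Within each rat, *Lrrc8d* over *Lrrc8a* ran from 2.43 to 3.44 in males and from 1.62 to 3.15 in females. Its log2 difference of −0.42 missed the threshold (exact permutation p = 0.0873, the same after adjustment over the 3 ratios), but without female 4 the p was 0.0238.

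The subunit *Lrrc8e* was lower in females past the test over all genes. Its males were at 5.77, 5.69, 6.30, 8.30 and 6.70 FPKM and its females at 4.75, 3.46, 4.19, 4.26 and 3.94 FPKM. Every female was below every male, and the log2 fold change was −0.65 (95% interval −0.93 to −0.37, limma adjusted p = 0.0213). Leaving out 1 rat at a time gave adjusted p of 0.0237 to 0.0610, with the call kept in 7 of 10 cases. *Lrrc8b* was at 10.5 FPKM in males against 9.44 FPKM in females (limma adjusted p = 0.827), and *Lrrc8c* at 2.62 and 2.24 FPKM (limma adjusted p = 0.571). The 5 subunits thus held 1 that passed.

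The cotransporter gene *Slc12a2* (ENSRNOG00000015971, chromosome 18, 52917124 to 52985261, plus strand) overlapped between the sexes. Males had 8.87, 8.30, 8.17, 7.51 and 7.53 FPKM and females 7.82, 6.57, 7.33, 9.37 and 7.70 FPKM. Female 2 was the lowest and female 4 the highest of all 10 rats. The ratio of females to males lay between 0.818 and 1.12 (95% interval, limma adjusted p = 0.823), and the exact permutation p was 0.563.

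Of 6 listed regulators of NKCC1, *Wnk1* and *Stk39* passed the test, both higher in females. WNK1 acts on SPAK, the product of *Stk39*, which in turn phosphorylates the cotransporter and also its thiazide-sensitive relative of the distal convoluted tubule. *Wnk1* was at 57.2, 42.8, 46.1, 49.3 and 51.2 FPKM in males against 61.4, 84.7, 84.6, 69.1 and 61.1 FPKM in females. *Stk39* was at 10.7, 9.49, 8.75, 9.13 and 9.37 FPKM in males against 11.7, 14.9, 12.9, 16.0 and 13.4 FPKM in females. In both genes every female exceeded every male. The log2 fold changes were 0.54 for *Wnk1* (limma adjusted p = 0.0422) and 0.53 for *Stk39* (limma adjusted p = 0.0179). With 1 rat left out, the *Stk39* call was kept in 9 of 10 cases and that of *Wnk1* in 3 of 10, with an adjusted p of up to 0.111. The SPAK relative *Oxsr1*, which also phosphorylates the cotransporter, was at 17.9 FPKM in males against 16.8 FPKM in females (limma adjusted p = 0.690). *Wnk4*, a further WNK kinase, was at 5.10 and 6.48 FPKM (limma adjusted p = 0.297), and *Cab39*, a partner of SPAK and its relative, was at 41.0 and 45.2 FPKM (limma adjusted p = 0.397).

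*Wnk1* and *Stk39* are also expressed in the distal convoluted tubule. The summed markers of that segment, 4 listed genes, overlapped between the sexes at 205 to 332 FPKM in males against 314 to 546 FPKM in females, with a median log2 fold change of 0.47. Fitted levels of all 3 tested were higher in females, 2 of them with an exact permutation p of 0.05 or less, and 1, *Calb1*, passed the test over all genes (139 FPKM in males, 281 FPKM in females, limma adjusted p = 0.0226). Their part in the kinase results was not tested.

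*Clcn3* (ENSRNOG00000010682, chromosome 16, 32449116 to 32519148, plus strand) was the one member with a higher mean in females. Males had 18.9, 16.5, 20.0, 17.2 and 14.4 FPKM and females 17.8, 19.3, 18.0, 20.4 and 16.5 FPKM. Only female 4 exceeded all males and only male 5 lay below all females. The 95% interval of the ratio was 0.911 to 1.23 (limma adjusted p = 0.746). A pseudogene on the opposite strand, with a mean of 2.82 FPKM, overlaps the gene, and no strand setting of the counting is given in the sources used here. Barttin (*Bsnd*), a beta subunit of chloride channels of the distal nephron, rose in females from 22.5 ± 2.01 to 32.2 ± 4.24 FPKM (SD, n = 5 each, limma adjusted p = 0.0251). With 1 rat left out its call was kept in 3 of 10 cases, with an adjusted p of up to 0.0746. The intercalated cell also expresses barttin. Its 5 markers summed to overlapping values of 130 to 203 FPKM in males against 191 to 267 FPKM in females, with a median log2 fold change of 0.57. All 5 were higher in females with an exact permutation p of 0.05 or less, and 1, the proton pump subunit *Atp6v0d2*, passed the test over all genes (32.1 and 48.3 FPKM, limma adjusted p = 0.0351). Their part in the *Bsnd* result was not tested. Of 8 tested genes of the ClC list, *Bsnd* alone passed.

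Per unit of transcript length, the members spanned a wide range of levels. Over all 10 rats the order of mean FPKM was *Lrrc8d* at 41.1, *Ano6* at 21.3, *Ano10* at 19.1, *Clcn3* at 17.9, *Lrrc8a* at 16.4, *Slc12a2* at 7.92, *Ano1* at 1.32 and *Cftr* at 0.196. Among the 17631 genes tested, *Lrrc8d* stood at the 88.5th percentile and *Cftr* at the 6.85th. Neighbours in that order were compared within each rat by an exact sign-flip permutation test. *Ano10* and *Clcn3* did not differ beyond their spread (*Ano10* higher in 7 of 10 rats, exact p = 0.102, 0.102 adjusted over 7 pairs), nor did *Clcn3* and *Lrrc8a* after adjustment (7 of 10 rats, exact p = 0.0449, adjusted 0.0524). *Ano6* exceeded *Ano10* in 9 of 10 rats (exact permutation p = 0.00391, adjusted 0.00547). The other 4 pairs held in every rat, each with an exact p of 0.00195, the smallest 10 rats allow, and 0.00342 after adjustment.

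**Figure D3:**
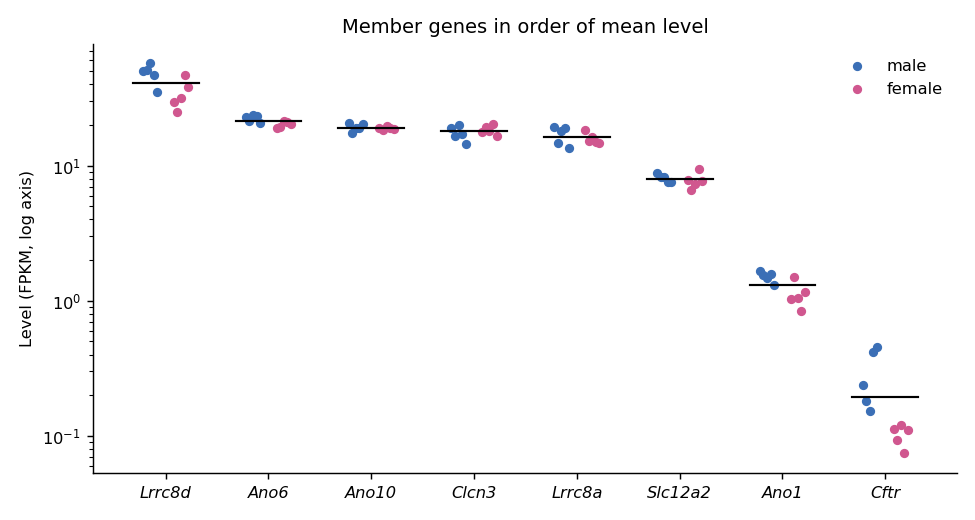
Mean expression of the members in order, in FPKM on a log axis, with a point for each of the 10 rats by sex. *Lrrc8d* is highest at a mean of 41.1 FPKM, 4 genes lie close together between 16.4 and 21.3 FPKM, and *Ano1* and *Cftr* lie far below.

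The apical channels differed by a wide margin from each other. *Ano1* exceeded *Cftr* in all 10 rats, with a geometric mean ratio of 7.90. The ratio *Cftr* over *Ano1* was 0.196 ± 0.109 (SD, n = 5) in males and 0.0940 ± 0.0208 (SD, n = 5) in females. The exact permutation p for its sex difference was 0.0317, and 0.0873 after adjustment over the 3 ratios. With 0.1 FPKM added to each term, which shrinks ratios of so low a gene, the exact p was 0.222. Leaving out female 1, 2, 4 or 5 gave an exact p of 0.0556, 0.103, 0.0794 or 0.0714.

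**Figure D4:**
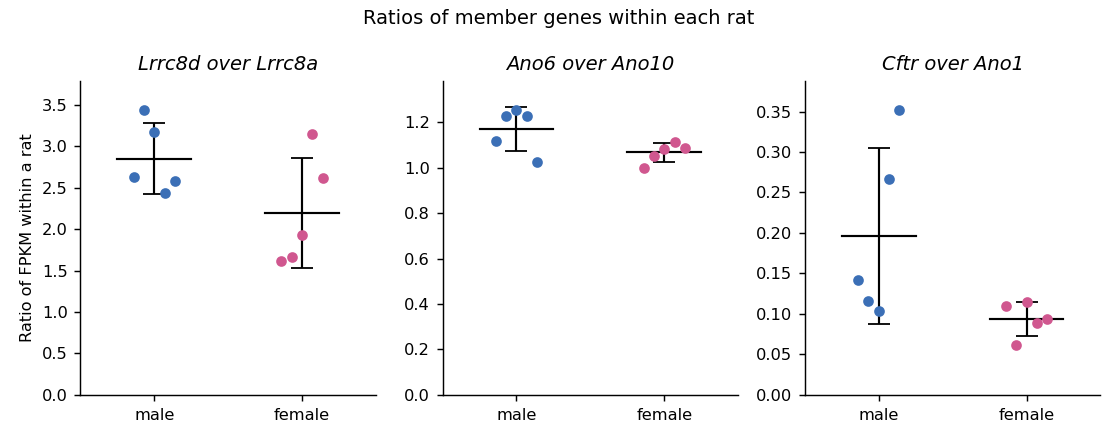
Ratios of paired members within each rat, on a linear axis, with the mean and SD of each sex. The ranges of *Lrrc8d* over *Lrrc8a* (2.43 to 3.44 in males, 1.62 to 3.15 in females) and of the other 2 ratios overlap between the sexes.

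Genes that drive or accompany the members were read from 9 lists of 80 symbols, some of them other names of a listed gene. They matched 77 entries of the table, of which 68 passed the filter. In limma's test 5 were higher in females (7.35%, against 1.26% of all genes) and 3 were lower (4.41%, against 1.14%), and the median log2 fold change was −0.01. These shares describe the lists and were not tested against other genes. The 8 genes were *Lrrc8e*, *Wnk1*, *Stk39* and *Bsnd*, described with the members, and *Avpr2*, *Adcy3*, *Slc26a9* and *Ttyh2*.

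**Figure D5:**
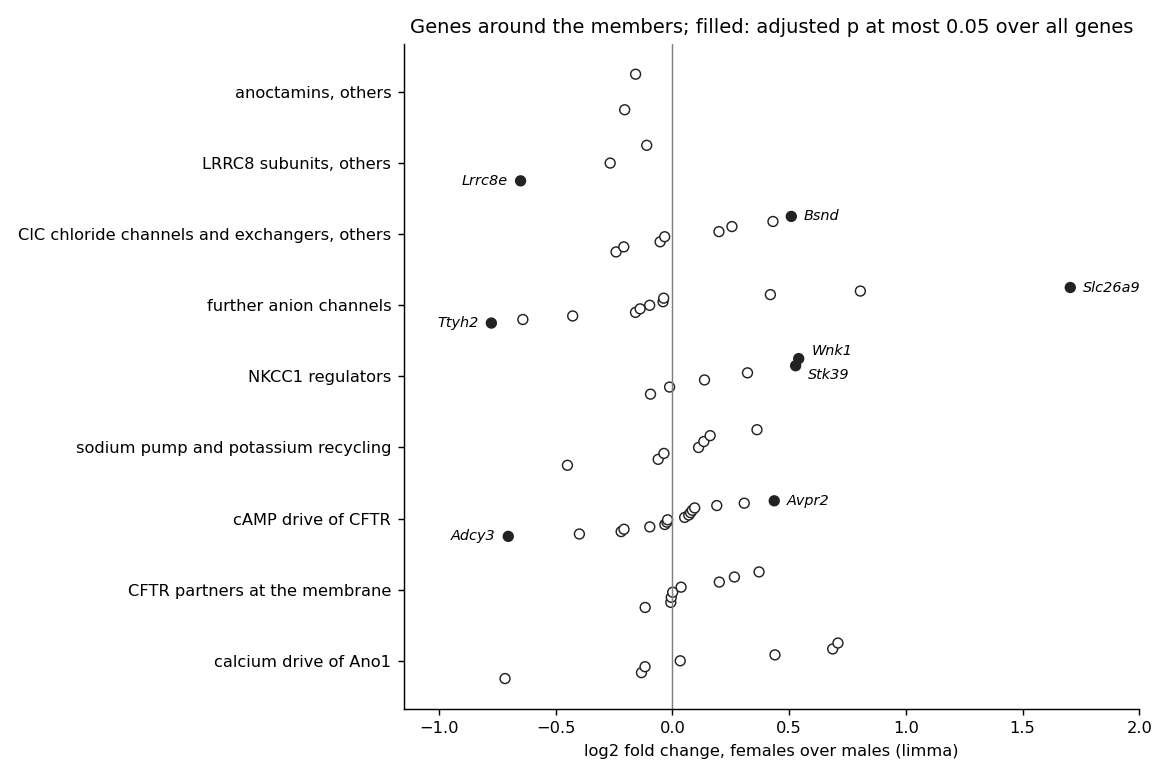
Log2 fold change of females over males (limma) for the 68 tested entries of the 9 lists, a point per entry and a line of points per list. Filled points are the 8 genes with an adjusted p of 0.05 or less, 5 to the right of 0 and 3 to the left.

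Upstream of CFTR, 1 gene of the cAMP list rose and 1 fell among 16 tested entries. *Avpr2*, the vasopressin receptor of the collecting duct, was at 15.3, 14.6, 14.6, 11.2 and 12.5 FPKM in males against 18.3, 16.4, 18.7, 19.0 and 19.6 FPKM in females (log2 fold change 0.44, limma adjusted p = 0.0469). *Adcy3*, an adenylyl cyclase, was at 2.74, 2.09, 2.35, 1.99 and 2.53 FPKM in males against 1.56, 1.36, 1.73, 1.01 and 1.39 FPKM in females (log2 fold change −0.70, limma adjusted p = 0.0480). With 1 rat left out, *Avpr2* kept its call in 2 of 10 cases and *Adcy3* in 1 of 10. The principal cell markers, 6 genes including *Avpr2*, summed to 295 to 476 FPKM in males against 341 to 537 FPKM in females. In females all 6 had a higher fitted level, with a median log2 fold change of 0.40. Of them 2, *Avpr2* included, had an exact permutation p of 0.05 or less. The part of these markers in the *Avpr2* result was not tested. The stimulatory G protein gene *Gnas*, under its main identifier, was at 54.7 and 58.1 FPKM (limma adjusted p = 0.813), and *Prkar1a*, a regulatory subunit of protein kinase A, at 127 and 125 FPKM (limma adjusted p = 0.912).

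Of 11 further anion channel genes tested, *Slc26a9*, a chloride channel of epithelia, had the largest log2 fold change. It was at 0.127, 0.226, 0.233, 0.203 and 0.149 FPKM in males, on 7 to 15 reads each. Its females had 0.916, 1.01, 0.364, 0.853 and 1.26 FPKM, on 22 to 72 reads each. The log2 fold change was 1.70 (95% interval 1.05 to 2.36, limma adjusted p = 0.0121), and leaving out any rat kept it under the threshold. At so few reads its size depended on the pseudocount, with 0.65 at 1 FPKM and 2.10 at 0.01 FPKM. Its female mean of 0.882 FPKM stood above that of *Cftr*, and its male mean of 0.187 FPKM stood below. *Ttyh2*, a member of the tweety family of membrane proteins, fell from 7.73 ± 2.06 to 4.39 ± 0.612 FPKM (SD, n = 5 each, limma adjusted p = 0.0470), a call kept in 2 of 10 cases with 1 rat left out. The most abundant of the list, *Ttyh3* and the acid-activated chloride channel gene *Tmem206*, had limma adjusted p of 0.949 and 0.735.

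No gene passed in the remaining 3 lists, which hold 22 of the tested genes. Among 7 tested genes for the calcium that opens TMEM16A, the store-operated channel gene *Orai1* was at 16.8 FPKM in males against 23.1 FPKM in females (exact permutation p = 0.0159, limma adjusted p = 0.0896), and the release channel gene *Itpr1* at 19.4 and 19.8 FPKM. Among the purinergic receptor genes, *P2ry2* was at 4.72 and 2.94 FPKM (exact permutation p = 0.0159, limma adjusted p = 0.102) and *P2ry1* was at 2.45 and 3.97 FPKM (exact permutation p = 0.0317, limma adjusted p = 0.126). The sodium pump, which sustains the gradient that NKCC1 uses, had its beta subunit *Atp1b1* at 1039 and 1122 FPKM (limma adjusted p = 0.696). Scaffolds of CFTR at the membrane were led by *Slc9a3r1* at 357 and 413 FPKM (limma adjusted p = 0.530) and *Pdzk1* at 324 and 334 FPKM (limma adjusted p = 0.998).

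Other genes varied with single members from rat to rat. After removal of the mean of each sex, the closest of 13356 genes that averaged 1 FPKM or more were *Slc25a13* for *Lrrc8d* (Pearson r = 0.98, Spearman rho = 0.98), *Pwwp2a* for *Ano1* (r = 0.97, rho = 0.94) and *Ankrd52* for *Lrrc8a* (r = 0.97, rho = 0.94), over 10 libraries. For *Ano6* it was *RGD1310951* (r = 0.95, rho = 0.96), for *Cftr* *Ddx41* (r = 0.95, rho = 0.95) and for *Clcn3* *Dach1* (r = 0.93, rho = 0.83). For *Slc12a2* it was *Dirc2* (r = 0.93, rho = 0.81) and for *Ano10* *Snapc4* (r = 0.91, rho = 0.82). Next came *Ppip5k2* for *Lrrc8d*, *Dlgap4* and *LOC102557117* for *Ano1*, *Cdk13* and *Chd3* for *Lrrc8a*, *Amigo1* and *Gas1* for *Ano6*, and *Carhsp1* and *Ppp1r8* for *Cftr*. For *Clcn3* they were *Zfp518b* and *Atg7*, for *Slc12a2* *Slc11a2* and *Cml3*, and for *Ano10* *Myrip* and *Mob3c*. Without the 2 libraries farthest from the member's median, r for the closest gene ranged from 0.77 for *Dirc2* and *Snapc4* to 0.96 for *Slc25a13*. As the highest of so many genes that share libraries and depth, these values are a description.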

How the data were processed

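RNA-seq of kidneys from 5 male and 5 female PCK rats was used, grouped by the sex in the sample labels. According to the study's methods and the submitters' processing notes, reads were filtered with fastp, aligned with HISAT2 2.0.5 to Rnor_6.0 and counted with featureCounts 1.5.0-p3, and StringTie 1.3.3b is also listed. The authors deposited FPKM for 32545 genes in 1 table and tested their counts with DESeq2, which were not used here. Dividing each FPKM by the value of 1 read at the gene's length gave whole reads (within 0.001) for 100% of values, which supplied depth and Poisson intervals. The library size that these values imply was below the reads on genes in male 2, female 2 and female 4. In female 4 it was 17691443 against 19556707 reads, so the deposited FPKM were not scaled to the read total alone. The 17631 genes that averaged 0.1 FPKM or more were fitted with limma 3.58.1 (R 4.3.3, eBayes with trend) on log2(FPKM + 0.1), with Benjamini-Hochberg adjustment. Levels of single genes, and ratios within a rat, were compared by exact two-sided permutation tests of the difference in means (Python 3.11.15, numpy 2.4.6, scipy 1.17.1), and neighbouring levels by exact sign-flip tests. Both procedures were tested on simulated data.

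The members, gene lists and marker lists were chosen with earlier results of these data known. Named genes are the members, list genes past the adjusted threshold, the 2 most abundant of each list, the 3 closest genes to each member and the most abundant marker of a cell type, of which those bearing on a result are given and some are not reported here. *Oxsr1*, *Wnk4*, *Lrrc8c*, *P2ry1*, *P2ry2*, *Eif2s3y* and the markers *Atp6v0d2*, *Cubn*, *Ptger3*, *Sox9* and *Col3a1* were named after their values were seen. Of 80 list symbols, 75 were found in the table. Alternatives were a pseudocount of 1 or of 0.01 FPKM, a filter at 1 FPKM or none, median-ratio and total-read scaling, eBayes without trend, the replicate number as a block, limma-voom on recovered reads, a fold threshold and leaving out each rat. The median-ratio factor was 1.00764 in every library, so that scaling could hardly change a result and was no independent check. Leaving out male 5 and female 2 together and dividing by proximal tubule markers were added after the data were seen. Promoter windows came from RefSeq on GRCr8 and gene positions from the deposited table on Rnor_6.0, with no conversion between them. Protein sequences and litters were not used here.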

Additional observations from a re-analysis of the deposited data

How the results depend on the processing

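In no setting did a member pass limma's adjusted threshold. The *Cftr* log2 fold change ran from −1.36 (limma-voom, adjusted p = 0.0762) to −0.22 (pseudocount of 1 FPKM), and the filter at 1 FPKM removed *Cftr*, so no value was given there. Its exact p with 1 rat left out was 0.00794 to 0.0238. Low counts limit *Cftr* and *Slc26a9*.

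With 1 rat left out, differences in mean FPKM ranged from −0.489 to −0.322 for *Ano1*, from −2.72 to −1.98 for *Ano6* and from −16.8 to −11.3 for *Lrrc8d*, and 2 to 4 members had an exact p of 0.05 or less. Log2 ratio differences ranged from −0.56 to −0.32 (*Lrrc8d* over *Lrrc8a*), from −0.18 to −0.10 (*Ano6* over *Ano10*) and from −1.11 to −0.67 (*Cftr* over *Ano1*), and the log2 level ratio of *Clcn3* over *Lrrc8a* from 0.10 to 0.16, losing an exact p of 0.05 in 7 of 10 cases. Calls over all genes ranged from 140 to 284 higher and 124 to 266 lower in females, and those of the lists from 1 to 5 and from 0 to 2. Per 1000 FPKM of proximal tubule markers, differences ranged from −1.26 to 0.00912 for *Ano10* and from −0.506 to 0.404 for *Clcn3*.

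Against 223 higher and 201 lower genes, of which 5 and 3 were in the lists, a log2 fold change of at least 1 as a further condition left 109 and 123, with 1 and 0 in the lists. Without a filter the lists gave 3 higher and 1 lower. Total-read scaling and eBayes without trend each gave 2 higher. The log2 ratio of *Cftr* over *Ano1* was −0.45 with 0.1 FPKM added to each term (exact p = 0.222). Without male 5 and female 2, chosen after the data were seen, *Ano10* turned to 0.0320 FPKM higher in females (exact p = 0.943) and *Lrrc8d* was at −14.5 FPKM (exact p = 0.0571).

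The replicate number as a block (replicate block) gave 119 higher and 112 lower genes, and 0 and 0 in the lists. Sign-flip tests of same-numbered pairs, which cannot go under 0.0625 with 5 pairs, gave −0.187 FPKM for *Cftr*, −0.393 for *Ano1* and −2.30 for *Ano6*, each with an exact p of 0.0625, and −13.6 for *Lrrc8d* (exact p = 0.25). Same-numbered rats did not deviate together (correlations of −0.10 to 0.07, and 1 of 5 males closest to its own number). Rats of a pair need not deviate together over all genes, so this cannot decide whether the numbers pair them. The sources used here do not state it. The cause of these changes was not tested.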

Other observations

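Marker genes passed the test over all genes in both directions. *Calb1*, *Atp6v0d2*, *Cubn* and *Avpr2* were higher in females, as given with the members. Lower in females were *Ptger3*, a prostaglandin receptor listed for the thick ascending limb (34.8 and 22.9 FPKM, limma adjusted p = 0.0435, against a median log2 fold change of 0.24 over the 4 markers of that segment), and single genes of the injured or cyst-lining epithelium list and of the fibroblast list, whose counts and medians stand with the members. *Sox9*, a transcription factor of tubule repair, was at 15.5 ± 7.16 FPKM (SD, n = 5) in males against 6.18 ± 1.83 FPKM (SD, n = 5) in females (limma adjusted p = 0.0359). *Col3a1*, a fibrillar collagen of fibroblasts, was at 81.8 and 39.5 FPKM (limma adjusted p = 0.0477). *Spp1*, osteopontin, was the most abundant of the injury list at 4867 and 3185 FPKM (limma adjusted p = 0.435). The summed injury list, most of which is *Spp1*, was highest in male 5 at 7402 FPKM and lowest in female 4 at 1056 FPKM, the rats that were the lowest male and the highest female for *Lrrc8d*.

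Female 2 had urothelial markers at a sum of 12.8 FPKM, where the other 9 rats had 0.200 to 0.763 FPKM. Its *Ano1* level, 1.51 FPKM, was the highest of the females. Female 2 was also the highest rat for the summed markers of intercalated cells, smooth muscle and pericytes, endothelium and podocytes. The part of any of these in its *Ano1* level was not tested.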
